A study of Mus musculus with 4 samples.

Results

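The sites described here are 242 broad accessible regions whose level in aged long-term hematopoietic stem cells (LT-HSCs) was at least 1 higher than in young ones on the log2 scale, that is, at least 2 times as high. They were chosen by the aged minus the young level that the authors' deposited broad table gives. That table lists 1325 sites that differed between the ages at a false discovery rate (FDR) under 0.05, so the 242 make up 18.3% of the listed sites and 0.0843% of the 286940 merged broad regions seen in 2 or more of the 4 libraries. Sites listed in either direction are 0.462% of these regions. Because this contrast chose the sites, their levels, fold changes and FDRs are a description and were not tested again.

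The study asked which chromatin sites of stem cells depend on age. ATAC-seq, which uses the transposase Tn5 to cut and tag open DNA, was applied to cells of the LSK/SLAM phenotype sorted at 25000 cells a sample. The 2 young samples came from wild-type (WT) C57BL/6 mice of 4 to 5 months, and the 2 aged samples from WT C57BL/6 mice of 20 to 22 months. They are biological replicates per the labels, which do not state whether mice were pooled or their sex.

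LT-HSCs are the rare self-renewing cells from which all blood lineages descend, and with age they become more numerous while their output shifts away from lymphoid cells. Accessible regions mark promoters at gene starts and enhancers, which can lie inside genes or far from them. A broad peak is a stretch of weaker but extended read enrichment, and a gene desert is a long interval without protein-coding genes.

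Sequence was read for promoters only. The sites overlapped the 250 bases before a RefSeq start (GRCm38.p6) of 5 genes. Of these promoters 4 are shown because they tie a site to an annotated start of a known gene. The Sox6 and Sh3bp5 starts lie inside the gene, and the midpoints of their sites are not within 1 kb of a gene end. The midpoint of the Sox6 site is 195334 bp from the nearest gene end. Hbb-bs encodes an adult beta globin, Sox6 a transcription factor of red cell maturation, Nupr1 a small stress-induced nuclear protein, and Sh3bp5 an SH3-binding signalling protein. The other is that of Gm7609, a predicted gene. The promoters run 5′ to 3′ on the minus strand of GRCm38, at chr7:103827929-103828178 (Hbb-bs), chr7:115846141-115846390 (Sox6), chr7:126625471-126625720 (Nupr1) and chr14:31417678-31417927 (Sh3bp5). Capitals mark matches to 5 searched motifs on either strand, each spelled out after the sequences.
Hbb-bs: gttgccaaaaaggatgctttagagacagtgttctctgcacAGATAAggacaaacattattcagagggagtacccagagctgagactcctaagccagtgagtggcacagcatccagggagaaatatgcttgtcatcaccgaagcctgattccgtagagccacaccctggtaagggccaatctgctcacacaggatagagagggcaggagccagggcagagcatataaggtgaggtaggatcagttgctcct
Sox6: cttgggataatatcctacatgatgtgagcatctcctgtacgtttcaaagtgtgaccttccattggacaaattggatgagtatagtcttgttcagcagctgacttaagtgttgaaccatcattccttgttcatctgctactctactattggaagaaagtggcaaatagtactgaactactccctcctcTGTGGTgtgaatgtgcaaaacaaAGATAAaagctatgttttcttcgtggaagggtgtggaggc
Nupr1: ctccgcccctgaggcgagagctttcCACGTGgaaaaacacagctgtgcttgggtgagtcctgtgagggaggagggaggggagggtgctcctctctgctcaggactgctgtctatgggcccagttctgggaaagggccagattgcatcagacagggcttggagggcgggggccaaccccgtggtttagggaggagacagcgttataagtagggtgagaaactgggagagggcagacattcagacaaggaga
Sh3bp5: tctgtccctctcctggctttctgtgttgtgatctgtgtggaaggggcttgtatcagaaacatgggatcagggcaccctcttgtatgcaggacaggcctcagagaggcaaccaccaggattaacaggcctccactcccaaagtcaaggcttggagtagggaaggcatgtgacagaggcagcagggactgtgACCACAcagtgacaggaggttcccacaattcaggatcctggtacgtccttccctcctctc
AGATAA, the core bound by GATA factors, was found in the Hbb-bs and Sox6 promoters and in 8.81% of 21263 promoters of the same length. TGTGGT, the core bound by RUNX factors, was found in those of Sox6 and Sh3bp5 and in 12.4% of all. CACGTG, the E-box bound by Myc and related factors, was found in that of Nupr1 and in 6.63% of all. GGAAGT, an ETS core, stood only in the Gm7609 promoter among the 5 and in 20.4% of all, and TGANTCA, an AP-1 site, stood in none of the 5 and in 6.13% of all. A match is a string of letters, and binding was not measured here.

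Read totals are unknown for these libraries, so the peak lists give the only measure of depth. The broad lists held 242700 and 461860 peaks in young replicates 1 and 2 and 322627 and 468792 in aged replicates 1 and 2, and peaks with q under 0.05 numbered 64328 to 76387 of these, the most in aged replicate 2. Promoters of the LT-HSC markers (9 of 12 with a promoter sequence, such as Mecom, Hlf and Procr) held a narrow peak with q under 0.05 in 9 of 9 cases in each library. Such a peak was also present in each library at 4 of 5 megakaryocyte, 2 of 5 T and NK cell and 3 of 3 endothelial and stromal markers. It was present in no library at 5 of 5 granulocyte and monocyte markers. Open promoters therefore did not set LT-HSC markers apart from megakaryocyte or endothelial and stromal markers. The T and NK cell and the granulocyte and monocyte lists were less open. Red cell and B cell markers varied between libraries and are given with the red cell genes.

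Most of the sites were weakly accessible in young cells. The authors' deposited table gives them young levels from -0.08 to 6.90 with a median of 4.50, and aged levels from 4.59 to 8.02 with a median of 6.41 (log2 mean normalized reads). Converted back from log2, the median site had 22.6 normalized reads in young and 84.7 in aged samples by the authors' deposited table. Per kb of site the medians were 17.8 and 69.9 reads in that authors' deposited table, against 324 reads per kb in young samples for the 1079 sites that were lower in aged cells. For the 102 sites at least halved in aged cells the medians were 96.1 reads per kb in young and 39.2 in aged samples by the authors' deposited table. The level difference of the 242 sites had a median of 1.93 in the authors' deposited table and reached 2 in 117 sites and 3 in 26. A young level under 3 was given to 46 sites and one of at least 6 to 25 by the authors' deposited table. Converted back from log2, the set runs from 0.946 to 119 normalized reads in young samples by the authors' deposited table.

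**Figure D1:**
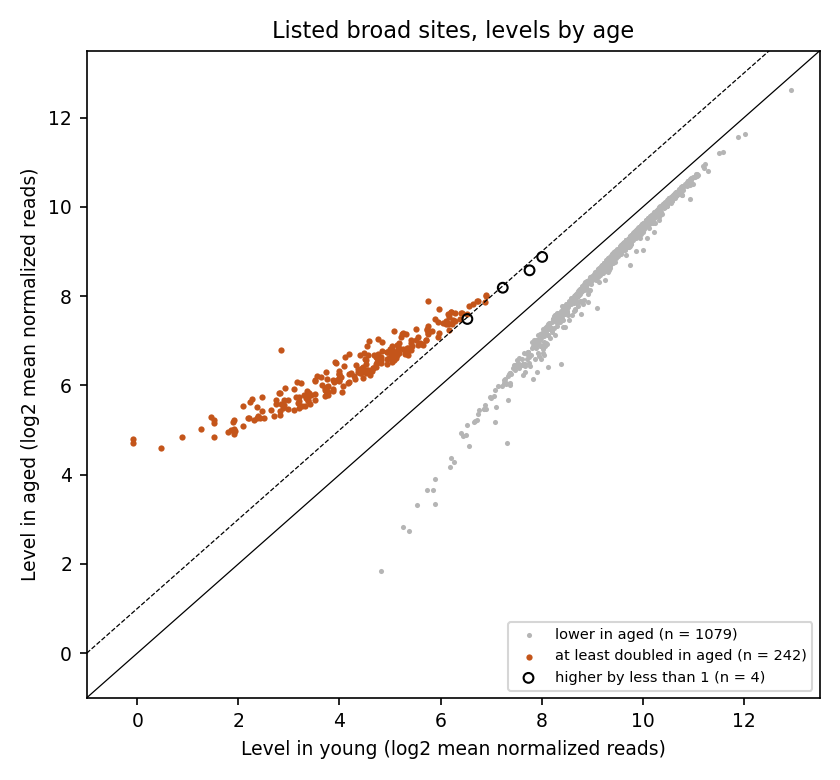
Each point is 1 of the 1325 broad sites that the authors' deposited table lists, with its level in young cells on the x axis and in aged cells on the y axis (log2 mean normalized reads); the solid line marks equal levels and the dashed line a difference of 1. The 242 sites at least doubled in aged cells lie at young levels of 6.90 and below, while most of the 1079 lower sites lie above that.

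Of the 10 sites with the lowest FDR, 6 lay in gene deserts (gaps of at least 500 kb). The share was 35.4% of the 65 sites with an FDR under 0.01, 25.2% of all 242 and 23.3% of all broad regions. This ranking uses the contrast that chose the sites, and the shares were not tested. The lowest of all was at chromosome 5, 126537601 to 126538706, in a gap of 1391864 bp between protein-coding genes and 688193 bp from the predicted gene Gm4868. Its level was 2.84 in young and 6.80 in aged samples with an FDR of 5.51e-09 by the authors' deposited table. In the peak lists this site had no broad peak in either young library and a fold enrichment over background of 3.40 in aged replicate 1 and 5.11 in aged replicate 2, so both aged libraries carried it. Broad peak folds, here and below, come from the same reads that chose the sites. They describe the difference between the ages and do not test it.

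A pair of sites in the gene gap beside Ctnna2, whose product alpha-N-catenin ties neuronal cadherins to actin, followed on chromosome 6. The nearer one, 76627911 to 76629381 and 252991 bp from the gene, had levels of 5.75 and 7.89 and an FDR of 9.28e-08 by the authors' deposited table. Its broad peak fold was 2.32 and 1.82 in the young and 4.91 and 5.34 in the aged libraries, the aged pair being above the young pair. The farther one, 75945782 to 75947751 and 934870 bp away, had levels of 4.58 and 7.0 and an FDR of 2.19e-05 by the authors' deposited table. The third site of this gene lay inside Ctnna2 itself (chromosome 6, 77723550 to 77725535), with levels of 5.76 and 7.34 and an FDR of 0.00968 by the authors' deposited table.

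Rbfox1, a splicing factor of neurons and muscle, held a site in its gene body at chromosome 16, 6320464 to 6322249. Its levels were 5.97 and 7.72 (FDR 1.23e-05) in the authors' deposited table, with broad peak folds of 1.92 and 2.55 in the young libraries and 3.51 and 4.32 in the aged ones. A site 489840 bp from Car10, a carbonic anhydrase-related protein, at chromosome 11, 92606197 to 92607732, had levels of 4.76 and 7.03 (FDR 2.31e-05) in the authors' deposited table. The folds at Car10 were 1.79 and 1.53 in young against 3.74 and 5.19 in aged libraries, and the ages again did not overlap.

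Among the remaining 5 of the 10 lowest FDRs, 3 sites lay inside genes. The Snd1 site (an RNA-binding Tudor protein, chromosome 6, 28928885 to 28929703) had levels of 3.91 and 6.52 and an FDR of 8.04e-05 by the authors' deposited table. The Rit2 site (a neuronal Ras-like GTPase, chromosome 18, 31236907 to 31238268) had 4.41 and 6.69 with an FDR of 0.000108 by the authors' deposited table. At Acsm1, a mitochondrial acyl-CoA synthetase (chromosome 7, 119618290 to 119619340), the authors' deposited table gives 4.11 and 6.64 with an FDR of 0.000246. The last 2 lay in deserts. One was 902861 bp from Cntnap5a, a neurexin-like adhesion protein (chromosome 1, 114780966 to 114782786), with 5.07 and 7.23 and an FDR of 0.00017 by the authors' deposited table. The other was 127208 bp from Nrg3, a ligand of the receptor ErbB4 (chromosome 14, 38236852 to 38238936), with 4.55 and 6.88 and an FDR of 0.000696 by the authors' deposited table. Of these 10 sites 6 lay in deserts and 4 inside genes, and 8 had a broad peak with q under 0.05 in both aged libraries and 0 in a young one.

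The largest differences came from sites that were nearly closed in young cells. Sites inside Zfp462, a zinc finger protein (chromosome 4, 55062217 to 55062727), and Mylk, myosin light chain kinase (chromosome 16, 34861930 to 34862348), share the lowest young level of -0.08, which is 0.946 normalized reads, in the authors' deposited table. Their aged levels were 4.80 and 4.72 in the authors' deposited table, or 27.9 and 26.4 reads, so the size of the fold rests on a young value of about 1 read. The sites inside Epb41l3, a membrane skeleton protein (0.48 and 4.59), and 3478 bp from the predicted gene Gm11564 (0.88 and 4.85), come next in the authors' deposited table, ahead of the Gm4868 site described above. Mogat1, a monoacylglycerol acyltransferase, held the site with the fifth lowest young level, 1.26 against 5.03 in aged samples in the authors' deposited table. None of the 5 sites with the largest difference had a young broad peak, and 3 of them, at Mylk, Epb41l3 and Gm11564, had no broad peak with q under 0.05 in any library.

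At the other end are the 5 sites with the highest young levels, of which 4 had a broad peak with q under 0.05 in a young library. The highest young level, 6.90 against 8.02 in aged samples in the authors' deposited table, was 77559 bp from Nr2f2, the nuclear receptor COUP-TFII, at chromosome 7, 70273632 to 70275142. This site had a broad peak in every library, with folds of 2.88 and 3.67 in the young libraries and 4.64 and 5.93 in the aged ones. It was also the only one of the 242 that overlapped a listed narrow site, with narrow levels of 6.81 and 7.97 and an FDR of 0.00335 by the authors' deposited table of narrow sites. The others were near Trhr, the thyrotropin-releasing hormone receptor (6.89 and 8.01), in Dpp6, a potassium channel subunit (6.88 and 7.88), near the fucosyltransferase gene Fut10 (6.74 and 7.90) and in Rbfox3, which encodes the neuronal marker NeuN (6.72 and 7.90), all in the authors' deposited table. At Trhr the libraries overlapped between ages, with broad peak folds of 5.26 and 3.53 in the young libraries and 4.78 and 6.68 in the aged ones.

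Among the listed sites that were higher in aged cells, the threshold passes through a thinly filled part of the range. Only sites with an FDR under 0.05 are listed, so differences that missed this FDR are not seen here. The members with the smallest difference were the Dpp6 site (1.00, FDR 0.0427) and one in Cyp2b10, a cytochrome P450 (1.06, FDR 0.0429), in the authors' deposited table. The 4 sites that were higher in aged cells but missed the threshold lay nearest to Kcna4 (0.96), Nr3c2 (0.96), Ube2e2 (0.87) and Wars2 (0.82) in the authors' deposited table. Their young levels, 6.53 to 8.01 in the authors' deposited table, compare with at most 6.90 among the 242.

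The peak lists were then read library by library. Of the 242 sites, 105 had a broad peak in young replicate 1 (43.4%) and 139 in young replicate 2 (57.4%). In aged replicate 1 there were 241 (99.6%), and in aged replicate 2 all 242. Over all 286940 regions the shares were 62.9%, 85.1%, 72.1% and 81.2% in the same order, so the sites were below the common share in both young libraries and above it in both aged ones. These peaks come from the same reads as the levels, so the pattern was described and not tested. The site without a peak in aged replicate 1 lies in Rab37, a small GTPase of vesicle traffic.

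Stronger peaks were rare at the sites in the young libraries and common in the aged ones. Broad peaks with q under 0.05 were present at 15 sites (6.20%) in young replicate 1 and at 13 (5.37%) in young replicate 2. They were present at 103 sites (42.6%) in aged replicate 1 and at 198 (81.8%) in aged replicate 2. Over all regions these shares were 22.9% and 22.1% in young and 22.8% and 25.6% in aged replicates 1 and 2, so both aged libraries stood above the common share at the sites and both young ones below it. Such a peak was found in aged replicate 2 alone at 97 sites and in aged replicate 1 alone at 2, so the 2 aged libraries did not support the set equally. No library held such a peak at 42 sites (17.4%), against 69.8% of all regions. Narrow peaks showed the same order, at 43, 52, 179 and 233 of the sites.

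**Figure D2:**
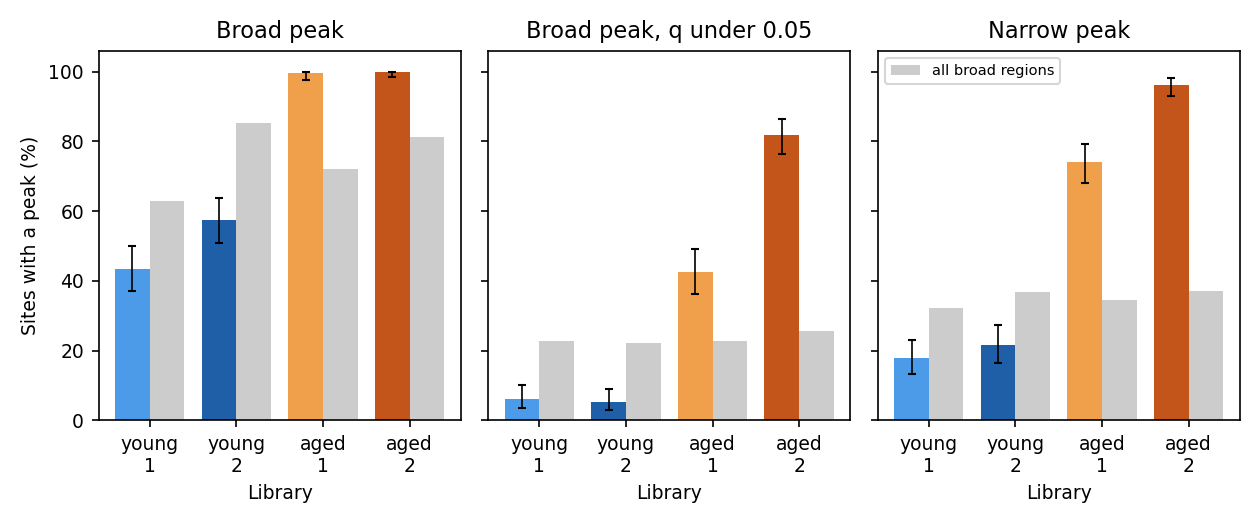
Bars give the share of sites (%) with a peak in each of the 4 libraries for any broad peak, broad peaks with q under 0.05 and any narrow peak; coloured bars are the 242 sites with exact 95% Clopper-Pearson intervals (counting error only) and grey bars all broad regions seen in 2 or more libraries. Broad peaks with q under 0.05 cover 42.6% of the sites in aged replicate 1 and 81.8% in aged replicate 2.

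Where peaks were present, their folds stood further above the list's median in the aged libraries. The median of the highest broad peak fold at a site was 1.996 in young replicate 1 and 1.79 in young replicate 2. It was 2.43 in aged replicate 1 and 3.49 in aged replicate 2. The medians over each whole list were 1.87, 1.61, 1.78 and 1.69, and the young values at the sites stood close to their list's median. A site's value is the highest of its peaks and a list's median is over single peaks, so these are not like measures. At the 96 sites with a peak in all 4 libraries both aged folds were above both young ones in 90, and the ages overlapped in 6. Folds are the authors' own and each belongs to its own list. The share of a site's length under broad peaks had medians of 0% and 20.3% in young replicates 1 and 2 and of 72.2% and 89.4% in aged replicates 1 and 2.

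By young support the sites fall into 3 groups. Broad peaks in both aged and in neither young library were found at 94 sites (38.8%), a pattern held by 6.91% of all regions. Peaks in all 4 libraries were found at 96 sites (39.7%), close to the 42.0% of all regions. A further 52 had a peak in 1 young library, of which 43 had it in young replicate 2, the young library with the longer list. With q under 0.05 the pattern of both aged and neither young was found at 81 sites (33.5%), against 1.01% of all regions. Without young replicate 2 the share open only in aged libraries was 56.2%.

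The medians of level and width and the share in deserts went with this young support. Sites without a young peak had medians of 3.18 and 5.71 in the authors' deposited table and a width of 891 bp, and 18.1% of them lay in deserts. Sites with a peak in both young libraries had medians of 5.35 and 6.96 in the authors' deposited table and a width of 1497.5 bp, and 30.2% lay in deserts. The second group was wider and had higher levels at both ages, with the smaller median difference (1.54 against 2.58 in the authors' deposited table). Young peaks formed the groups and come from the same reads, so a higher young level and a smaller difference were partly built in. A longer region is more easily touched by a peak, and neither its part nor the difference between the groups was tested.

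Broad peak cover was compared between the site centres and their flanks. At the site centre 24.8% and 35.1% of the sites were under a broad peak in young replicates 1 and 2 and 85.1% and 93.4% in aged replicates 1 and 2. From 5 to 20 kb away the covered share was 7.19%, 11.3%, 9.21% and 11.3% in the same order of libraries, and it was 9.54%, 14.98%, 10.8% and 12.0% around all broad regions. The flanks did not separate by age as the centres did. The sites are merged peaks chosen by the aged minus the young level. Aged cover at their centres and its fall at their edges were therefore built in. This contrast was described and not tested.

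**Figure D3:**
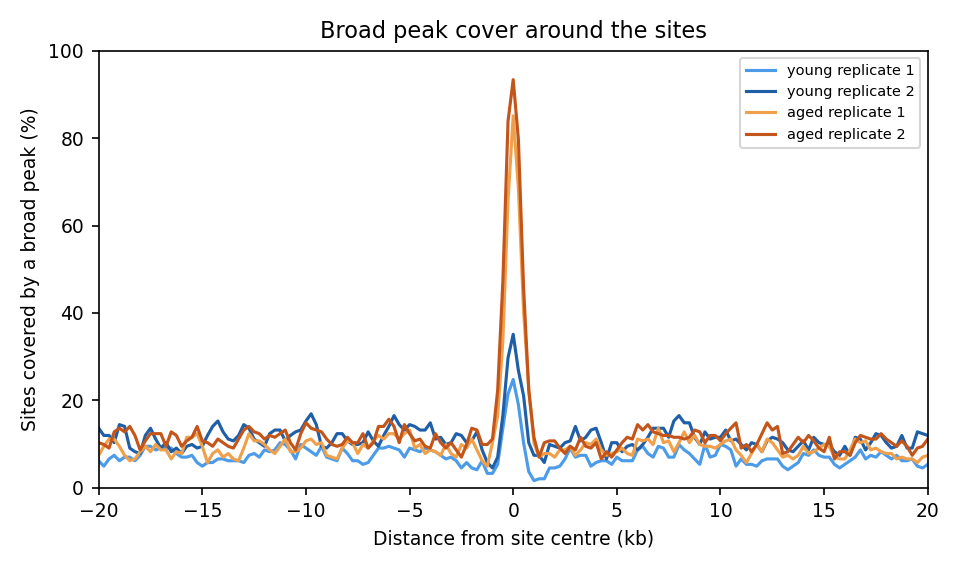
Lines give the share of the 242 sites (%) covered by a broad peak at each distance from the site centre (kb), one line for each library. All 4 lines peak at the centre, at 24.8% to 35.1% in young and 85.1% to 93.4% in aged libraries, and lie far lower in the flanks, where young replicate 1 is the lowest on average.

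The sites were of moderate width. Their median width was 1173.5 bp, from 276 to 4199 bp, against 975 bp for all broad regions. It was 1567 bp for the 101 sites at least halved in aged cells and 2468 bp for all sites lower in aged cells. The narrowest lay inside Syn3, a synapsin of synaptic vesicles, at chromosome 10, 86137108 to 86137383, with levels of 2.10 and 5.55 and an FDR of 0.00848 by the authors' deposited table. The widest spans 85196813 to 85201011 on chromosome 1 at the predicted genes Gm38510 and Gm7609, with levels of 4.73 and 6.48 in the authors' deposited table.

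Relative to protein-coding genes the shares were nearer to those of all broad regions than to those of all lower sites. Inside a gene lay 117 sites (48.3%, 95% interval 41.9 to 54.8%), against 46.9% of all broad regions, 51.5% of the 101 sites at least halved in aged cells and 73.4% of all lower sites. Only 8 sites (3.31%, 1.44 to 6.41%) had their midpoint within 1 kb of a gene end, against 6.69%, 9.90% and 49.4%. Deserts, gaps of at least 500 kb between protein-coding genes, held 61 sites (25.2%, 19.9 to 31.2%), against 23.3%, 14.9% and 5.87%. The members' intervals for gene bodies and deserts include the share of all regions, while the interval for gene ends lies below it. Within 1 kb of a RefSeq start of a protein-coding gene lay 13 sites (5.37%, 2.89 to 9.01%). The share of all broad regions there was 7.92%, which this interval includes. The intervals are exact Clopper-Pearson ones and cover counting error only, and no test of these differences was made. Counting every gene of the reference table, not only the protein-coding ones, left 4.55% of the sites in deserts. The share of all broad regions was not counted with that gene set.

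**Figure D4:**
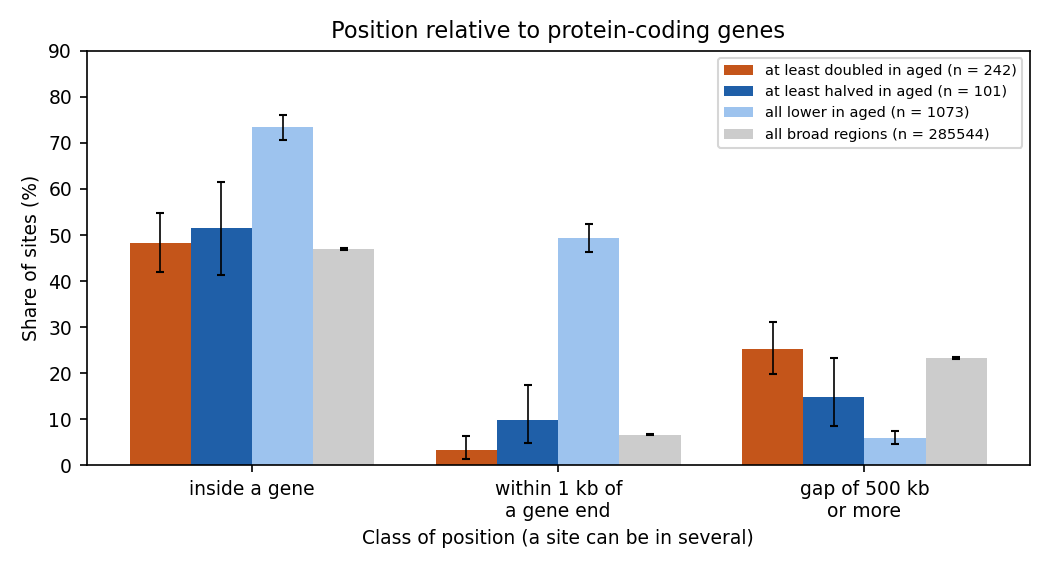
Bars give the share of sites (%) in each class of position for the 242 sites at least doubled in aged cells, the 101 at least halved, all 1073 lower sites and the 285544 broad regions whose chromosome the gene table covers; error bars are exact 95% Clopper-Pearson intervals. The doubled sites stand at 48.3%, 3.31% and 25.2%, near all broad regions except at gene ends, while 49.4% of all lower sites lie at a gene end.

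The genes that hold sites are long. The 117 sites lie in 110 genes, of which 70 are longer than 100 kb, 21 longer than 500 kb and 9 longer than 1 Mb. Lsamp, a neuronal adhesion protein, is the longest at 2197426 bp, followed by Pcdh15, a protocadherin of hair cells, at 1553555 bp and Rbfox1 at 1527688 bp. The median length of the host gene over sites was 154094 bp, against 108544 bp over all broad regions inside genes, and long genes hold more regions of any kind.

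The 61 desert sites had medians of 4.77 and 6.71 in the authors' deposited table. That is close to the 117 sites inside genes, with 4.46 and 6.38, and the 64 in shorter gaps, with 4.29 and 6.29, in the authors' deposited table. Desert sites had a broad peak with q under 0.05 in both aged libraries in 34 of 61 cases, sites inside genes in 43 of 117 and sites in shorter gaps in 24 of 64. The site farthest from any protein-coding gene was 1730190 bp from Cntnap5a at chromosome 1, 113953575 to 113955518, in a gap of 3819684 bp. Its levels were 4.84 and 6.97 in the authors' deposited table, with no young broad peak and folds of 3.20 and 4.63 in the aged libraries.

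The nearest genes were many. The 242 sites had 223 different nearest protein-coding genes, 206 of them nearest to 1 site, and Nrg3 and Ctnna2 were nearest to 3 each. Genes of a list made up mostly of neuronal adhesion and axon guidance genes, such as cadherins, contactins and protocadherins, were nearest to 18 sites (7.44%, 4.47 to 11.5%), against 5.95% of all broad regions and 1.40% of the lower sites. One of the 18 lies in Galntl6, a gene of the list that encodes a glycosyltransferase-like protein. The 18 sites at 15 genes had medians of 5.08 and 6.88 in the authors' deposited table, and 9 lay in deserts and 8 inside genes. Among the 65 sites with an FDR under 0.01 in the authors' deposited table the share was 13.8%, or 9 sites. With the nearest gene required within 100 kb it was 3.31%.

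Ion channel genes were nearest to 9 sites (3.72%, 1.71 to 6.94%) against 1.98% of all regions, with 2 sites in Kcnb2 and 2 at Kcnh8, both voltage-gated potassium channel genes. Zinc finger genes were nearest to 3 (1.24% against 1.72%). Olfactory, vomeronasal and taste receptor genes, which lie in large clusters, were nearest to 0 of the 242, against 1.93% of all regions, and a count of 0 in 242 allows a share of up to 1.24% by the limit of 3 counts (1.51% by the exact 95% interval). A nearest gene is a position only, and the genes' expression was not measured here.

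Of the transcription factors and other regulators of blood formation, 44 genes, 1 was nearest to any site. Myc, the growth-promoting transcription factor, had 2 sites in the gaps on either side of it on chromosome 15, 436422 bp away at 61548438 to 61549399 and 187805 bp away at 62177753 to 62178578. Their levels were 2.46 and 5.42 at the first and 3.18 and 5.61 at the second in the authors' deposited table, and neither had a broad peak with q under 0.05 in any library. The share of 0.826% is close to the 0.786% of all regions.

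Genes known to rise in aged stem cells were nearest to 7 sites at 6 of the 44 genes listed (2.89%, 1.17 to 5.87%), against 0.433% of all regions and 0.280% of the lower sites. This list was chosen with earlier results of these data known, so its share is not independent support. All 7 had a broad peak in both aged libraries. A broad peak with q under 0.05 was present at 7 of 7 in aged replicate 2, at 3 in aged replicate 1 and at 1, an Alcam site, in a young library.

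The site at the Nupr1 start (chromosome 7, 126624849 to 126625752) had levels of 5.88 and 7.49 and an FDR of 0.00117 by the authors' deposited table. It covers the promoter printed above, and it had no young broad peak and folds of 1.72 and 2.34 in the aged libraries. Alcam, the adhesion molecule CD166, had a site at 17404 bp (chromosome 16, 52469812 to 52471157, 5.84 and 7.22) and one at 785854 bp (53238154 to 53239715, 5.03 and 6.82) in the authors' deposited table. Both Alcam sites had a broad peak in every library, with folds of 1.65 to 2.71 in the young libraries and 2.46 to 3.90 in the aged ones.

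Ptprk, a receptor tyrosine phosphatase, had a site 210822 bp away at chromosome 10, 27863277 to 27864719, with 5.74 and 7.24 and an FDR of 0.00997 by the authors' deposited table. The folds there were 1.85 and 2.40 in the young libraries and 3.85 and 6.07 in the aged ones, with no overlap of the ages. Inside Neo1, the netrin receptor neogenin, a site at chromosome 9, 58947872 to 58949350, had 5.11 and 6.72 in the authors' deposited table. A site inside Enpp5 (chromosome 17, 44082991 to 44084021) had 5.74 and 7.27, and one 33052 bp from Tm4sf1, a membrane protein of the transmembrane 4 family (chromosome 3, 57251918 to 57253200), had 3.87 and 5.91 in the authors' deposited table.

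The sites at gene ends include those of red cell genes, Slc4a1 and Hbb-bs. Slc4a1, which encodes the band 3 anion exchanger of red cells, had a site at each end of the gene on chromosome 11. At 102348204 to 102349830 the levels were 3.42 and 5.59 (FDR 0.0413), and at 102363430 to 102366459 they were 6.20 and 7.64 (FDR 0.00805), in the authors' deposited table. The second had a broad peak in each library, with folds of 1.89 and 1.96 in the young libraries and 1.88 and 2.16 in the aged ones, so by peak height this is one of the 6 sites where the ages overlapped. One more site lay 10231 bp from the neighbouring gene Rundc3a (1.51 and 4.85 in the authors' deposited table), and the 3 sites span 35383 bp.

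Hbb-bs had a site over its start at chromosome 7, 103825636 to 103828494, with 6.11 and 7.37 and an FDR of 0.0471 by the authors' deposited table. Its broad peak folds were 2.29 and 2.21 in the young libraries and 2.36 and 2.25 in the aged ones, so it is another of those 6. Hbb-bs has a near-identical copy in Hbb-bt, and how reads shared by the copies were placed is not given in the sources used here. None of the sites at Slc4a1, Rundc3a or Hbb-bs had a broad peak with q under 0.05 in any library.

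Of 38 markers of the 6 cell types examined besides red cells, 0 had a doubled site within 50 kb. Promoters of 4 red cell markers could be read (Klf1, Hbb-bt, Epor and Ermap), and narrow peaks with q under 0.05 were present at 0 of 4 in either young library, 1 of 4 in aged replicate 1 and 3 of 4 in aged replicate 2. The summed fold of these peaks was 0 in both young libraries and 2.51 and 10.1 in the aged ones, and Klf1, the master regulator of red cell genes, held none in any library. Promoters of B cell markers were also highest in aged replicate 2, though not in aged replicate 1. Of 3 read, 1 and 2 held such a peak in young replicates 1 and 2, 0 in aged replicate 1 and 3 in aged replicate 2, with summed folds of 4.06, 6.15, 0 and 14.1. The part of red cell precursors or B cells in the sites was not tested. In sorted bulk samples a change in the cells present and a change within the stem cells cannot be told apart.

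The other sites at gene ends were at Cd9, Dpp8, Unk and Gm38510. Cd9, a tetraspanin carried by stem cells and platelets, had 4.00 and 6.16 (FDR 0.0116) in the authors' deposited table, without a young broad peak. Dpp8, a dipeptidyl peptidase, had 1.92 and 5.03, and Unk, an RNA-binding protein, 5.55 and 6.91 in the authors' deposited table. Of the 8 sites at gene ends, 5 had no broad peak with q under 0.05 in any library and 1, at Gm38510, had one in aged replicate 1.

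Along the chromosomes the sites were mostly alone. Within 1 Mb of another lay 68 sites (28.1%), in 32 clusters of which 28 held 2 sites and 4 held 3, and 16 of the clusters shared 1 nearest gene. The same share was 12.9% for the 101 sites at least halved and 71.9% for the 1073 lower sites, and it grows with the number of sites in a set. Neighbouring sites were a median of 5679954.5 bp apart, and 11 of the gaps were under 100 kb.

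The clusters of 3 show different settings. The Slc4a1 and Rundc3a cluster described above is the most compact. The Nrg3 cluster spans 354923 bp from 38236852 to 38591774 on chromosome 14, with a pair of sites in the desert beside the gene and 1 inside it. Its levels ran from 4.55 to 4.77 in young and from 6.32 to 6.88 in aged samples in the authors' deposited table, and its aged replicate 2 folds were 4.52, 2.78 and 3.18. The third, on chromosome 17, spans 1163253 bp from 28827947 to 29991199 with sites at Brpf3, a chromatin reader, Cmtr1, an mRNA cap methyltransferase, and Zfand3. The fourth, on chromosome 11, spans 1304562 bp with sites at Rab37, Unk and Rnf157.

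Chromosome 1 held the most sites, 19 (7.85%), next to 8.07% of all broad regions. Chromosome 7 held 18 (7.44% against 5.33%), chromosome 11 held 17 (7.02% against 4.44%) and chromosome 8 held 16 (6.61% against 4.72%). Chromosomes 16, with 13 sites (5.37% against 3.78%), and 19, with 7 (2.89% against 1.90%), also stood above their share of regions, while chromosomes 4 (4.13% against 6.04%) and 5 (3.72% against 5.91%) stood below it. On chromosome 11 the sites without a young broad peak numbered 11 of 17. The X chromosome held 2 (0.826% against 3.60%). Chromosome 15 had 12 sites (4.96% against 3.92%), and 4.86% of aged replicate 2's broad peaks were on it, where the 3 other libraries had 3.57% to 3.68%. Its part in the sites there was not tested, and with q under 0.05 in both aged libraries 4 of the 12 were left.

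**Figure D5:**
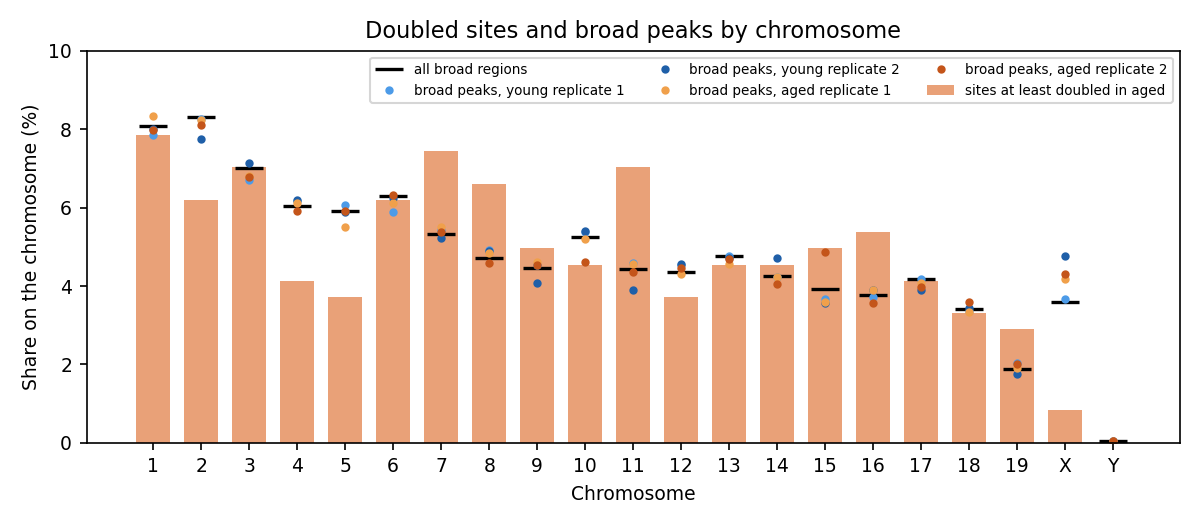
Bars give the share of the 242 sites on each chromosome (%), dashes the share of all broad regions and points the share of each library's broad peaks. Chromosomes 7, 8, 11, 16 and 19 stand above the dash with 7.44%, 6.61%, 7.02%, 5.37% and 2.89%, the X chromosome below it with 0.826%, and aged replicate 2 stands apart from the other libraries on chromosome 15.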

How the data were processed

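Open chromatin was mapped by ATAC-seq in 4 libraries, 2 young and 2 aged. FastQC 0.11.9, BWA 0.7.17, MACS2 2.1.2, DiffBind 2.14.0 and the build GRCm38 are named in the submitters' processing notes, without parameters, read shifting or filters. The authors deposited peaks called per library, with a fold enrichment ratio, a −log10 p-value and a −log10 q-value for each peak. The authors' deposited DiffBind tables give log2 mean normalized reads for each age, the log2 fold, a p-value and an FDR. They list differing sites only, without values per library, so nothing was retested.

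A site was taken where the aged minus the young level was at least 1. Broad peaks of the 4 libraries were merged, and all 1325 listed sites equalled a merged region. A peak counted for a site from 1 bp of overlap. The merging and nearest gene steps were checked on 2100 simulated regions, and 100 of 100 planted aged-only regions were recovered. Genes were 21887 protein-coding ones of a RefSeq table (GRCm38.p6) without strand or exons, so exon, intron and UTR were not analysed here. Positions are 1-based. All broad regions means those with a peak in at least 2 libraries, 286940 in all and 285544 on the table's chromosomes. The planned base composition was not analysed here. One site is not reported here. Depth is unknown, and precision is limited to counting error over sites.

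Sites named are the 10 with the lowest FDR, the 5 with the largest difference, the 5 highest and 5 lowest in young, those within 1 kb of a gene end, those nearest to the aging and blood regulator lists, the 3 largest clusters, the widest, the narrowest and those beside the threshold. Sites at printed promoters, marker genes and other list genes were named beside them. The members and the gene lists were chosen with earlier results of these data known. Alternatives varied the thresholds, the overlap, the gene set and the libraries. Tools were bedtools 2.31.1, scipy 1.17.1, pandas 2.3.3, numpy 2.4.6, matplotlib 3.10.9 and Python 3.11.15.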

Additional observations from a re-analysis of the deposited data

How the results depend on the processing

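Of 70 alternatives over the shares and counts, 42 stayed within the set's counting interval or within 1.5 times a count, and 28 did not. With an FDR under 0.01 by the authors' deposited table, the count of sites was 65, of which 35.4% lay in deserts, 41.5% inside genes, 15.4% in clusters and 13.8% nearest to genes of the neuronal adhesion list. When each gene of the reference counted, 4.55% lay in deserts, 57.9% inside genes and 7.44% within 1 kb of a gene end. Deserts of at least 250 kb held 33.1%, against 29.7% of all broad regions, and those of at least 1 Mb 14.9%, against 16.0%. A cluster distance of 500 kb gave 17.4% in clusters and one of 2 Mb 41.3%. With the nearest gene within 100 kb the adhesion share was 3.31%. Counting a library only where 50% of the site was covered gave 45.9% open only in aged libraries, and leaving out each library in turn gave 38.8% to 56.2%, the highest without young replicate 2. The median longest single broad peak was 1075.5 bp. In an alternative chosen after seeing the data, sites with a broad peak of q under 0.05 in aged replicate 1, 103 were left. Of these 8.74% had no young peak, 33.0% lay in deserts, 0.971% at a gene end and 9.71% in clusters, and their median width was 1317 bp. The cause was not tested. The share near the aging list stayed within its interval under each alternative run. That interval is wide (1.17 to 5.87%) and the alternatives recount the same sites or parts of them, so this adds no independent support. Each share above also stayed within its interval without chromosome 15. That alternative was also added after seeing the data, and it removes both sites of the blood regulator list. No paired analysis was possible because the authors' table holds no values per library and the results come from no test. Base composition was not run. Low read levels limit the sites near 1 normalized read, and read depth is unknown.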

Other observations

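One site, chosen after its values were seen, stood apart between the table and the peak lists. It lies 9187 bp from P4ha1, a collagen prolyl hydroxylase subunit, at chromosome 10, 59381556 to 59383426. Its level was 2.37 in young and 5.27 in aged samples in the authors' deposited table. Its broad peaks nevertheless had a q under 0.05 in each library, with folds of 3.05 and 2.79 in the young libraries and 3.12 and 3.70 in the aged ones. The 8 sites with such a peak in all 4 libraries had a median young level of 6.42 in the authors' deposited table.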
